A study of Mus musculus with 6 samples.

Results

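The mouse microRNA (miRNA) family made up of miR-466, miR-669, miR-467 and miR-297 was examined in cultured endothelial progenitor cells (EPCs). Members were all miRNA names of the deposited count table that began with mmu-miR-297, mmu-miR-466, mmu-miR-467 or mmu-miR-669. These were 80 of 1915 mature names, on 157 of 2061 rows. Each name was represented by its row of highest total, and names with identical counts in all 6 libraries were treated as 1 member, which left 71 members of 1635 distinct miRNAs in the whole table. The miR-297 subfamily had 4 members, miR-466 had 27, miR-467 had 12 and miR-669 had 28. By name 29 members were 5p arms, 30 were 3p arms and 12 carried no arm. The EPCs were grown from bone marrow of adult male C57BL/6J mice that had inhaled either concentrated ambient fine particulate matter (the CAPs group) or HEPA-filtered air (the Air group), with 3 small RNA libraries in each group. All mice of a group lived in 1 cage, and an effect of the cage cannot be told apart from one of the exposure. The labels gave 12 days of culture, and library numbers 1, 2 and 4 for Air and 8, 9 and 10 for CAPs.

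These miRNAs are encoded mainly in a large rodent-specific cluster within an intron of Sfmbt2, a gene for a Polycomb-group protein that in the mouse is imprinted and needed for placental growth. Each hairpin precursor can release a 5p strand and a 3p strand, one from either side of the stem, and the strand that is loaded into an Argonaute protein represses mRNAs that pair with its seed, bases 2 to 8. The cluster grew by repeated local duplication, many mature strands contain simple repeats and differ little from each other, and a short read can match several of them.

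Of 82 precursors of the 80 names, 81 were placed on the mm10 assembly (GRCm38) by name in RefSeq. Of these, 71 lay within Sfmbt2 on chromosome 2 (10370510 to 10595253, plus strand), between positions 10466663 and 10518279, and 0 overlapped an annotated Sfmbt2 exon, so these were intronic. In terms of names, 66 had precursors only in Sfmbt2, 9 only elsewhere, 3 in both (miR-297a-5p on chromosomes 2 and 7, miR-466f and miR-466f-5p on chromosomes 2 and 13) and 2 could not be placed. All 69 names in the table with a precursor in Sfmbt2 belonged to the 4 subfamilies.

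The mature sequences of 8 of the 80 names were found in RefSeq (build GRCm38.p6), all from loci outside Sfmbt2, and are shown because they display the repeats that the names of the family share. They are written 5′ to 3′ with the seed in capitals.
miR-466i-3p: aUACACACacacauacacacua
miR-466q: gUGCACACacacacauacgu
miR-467f: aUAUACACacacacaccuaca
miR-467g: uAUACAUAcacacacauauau
miR-466j: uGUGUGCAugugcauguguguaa
miR-466k: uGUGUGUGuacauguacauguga
miR-467h: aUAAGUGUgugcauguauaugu
miR-669n: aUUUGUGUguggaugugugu

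The first 4 were rich in CA repeats. miR-466i-3p had CA or AC at 15 of its 21 dinucleotide steps and UG or GU at 0. The last 4 were rich in UG repeats, and miR-466k had UG or GU at 13 of its 22 steps and CA or AC at 4. The 8 seeds differed from one another. miR-467h shared its seed with miR-668-5p, and the others shared theirs with no other mature name in RefSeq. Seeds of the remaining family names were not available for comparison. The hairpin of miR-466k lies on chromosome 3 (85467377 to 85467498, plus strand) and is shown because its mature strand, in capitals, was among the members with the smallest p-values below. The mature strand came from the 5p side of the hairpin.
Mir466k hairpin: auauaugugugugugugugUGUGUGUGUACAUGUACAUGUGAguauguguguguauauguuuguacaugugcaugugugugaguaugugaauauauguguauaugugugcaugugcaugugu

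Column totals were 19978586 to 25532775 counts, and 13816488 to 18085127 counts per library after 1 row was kept per distinct miRNA, of which the family held 31468 to 47744. Levels are given as CPM, counts scaled to a common library size after TMM scaling of the libraries, and 3 counts corresponded to 0.166 to 0.222 CPM. CAPs replicate 1 stood apart in the liver miRNA miR-122-5p, at 24765 CPM against 75.1 to 278 CPM in the other libraries. It was also the highest in the summed erythroid markers miR-451a and miR-144-3p (63.7 against 10.2 to 22.0 CPM) and epithelial markers miR-200a-3p and miR-200c-3p (65.4 against 27.4 to 43.4 CPM). The endothelial markers miR-126a-3p and miR-126a-5p summed to 948 to 5124 CPM and the haematopoietic markers miR-142a-3p, miR-142a-5p and miR-223-3p to 57300 to 75237 CPM. The stromal markers (miR-143-3p, miR-145a-5p, miR-199a-5p and miR-214-3p) summed to 22992 to 32418 CPM and the muscle markers (miR-1a-3p and miR-133a-3p) to 90.2 to 250.0 CPM. None of the markers examined was at 0 in any library, and their part in the results below was not tested. In such bulk RNA, fewer cells of a type and less RNA per cell cannot be told apart.

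The family as a whole was present at a similar level in both groups. Its summed level was 2763.8, 2526.0 and 2428.4 CPM in the Air libraries and 2420.4, 2628.1 and 2329.2 CPM in the CAPs libraries. The groups overlapped, and the CAPs mean was 0.956 of the Air mean. With upper-quartile scaling the ratio was 1.056, and that scaling moved the median of all tested miRNAs up by 0.14 on the log2 scale. The sum counts a read more than once where it was assigned to several names. After members with near-identical counts (within 5% in every library) were also merged, 67 members remained and the ratio was 0.975.

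Most of this signal came from few names. Of the 71 members, 7 had a mean level of at least 100 CPM, 27 of at least 10 CPM and 19 were under 1 CPM. miR-669j had no count in any library. The most abundant member was miR-669a-3p (identical to miR-669o-3p), which held 19.7% of the family's summed level and stood at rank 96 of the whole table. Its levels were 552, 541 and 509 CPM in Air and 476, 473 and 430 CPM in CAPs, without overlap, and lower in CAPs by a log2 fold change of -0.22 ± 0.10 (SE), which did not pass the edgeR test (adjusted p = 0.261).

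miR-466e-3p, miR-466b-3p and miR-466a-3p followed. Their counts could hardly be told apart. In each library miR-466a-3p had 98.6 to 98.8% of the count of miR-466b-3p, and miR-466b-3p was itself identical to miR-466c-3p and miR-466p-3p. miR-466b-3p was at 366, 319 and 306 CPM in Air and at 299, 320 and 276 CPM in CAPs, with overlap between groups and a log2 fold change of -0.15 ± 0.11.

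Among the 5p names the most abundant was miR-467e-5p, at 221, 209 and 204 CPM in Air and 195, 226 and 226 CPM in CAPs. These ranges overlapped and the log2 fold change was 0.03 ± 0.11. miR-669c-5p was at 138, 131 and 140 CPM in Air and 133, 145 and 152 CPM in CAPs, again with overlap (0.07 ± 0.10). In miR-297, the scarcest subfamily, the leading member was miR-297a-3p (identical to miR-297b-3p and miR-297c-3p) at 21.7, 19.5 and 19.8 CPM in Air and 18.4, 15.7 and 12.1 CPM in CAPs. Its groups did not overlap, with a log2 fold change of -0.40 ± 0.18 that did not pass the edgeR test (adjusted p = 0.261).

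**Figure D1:**
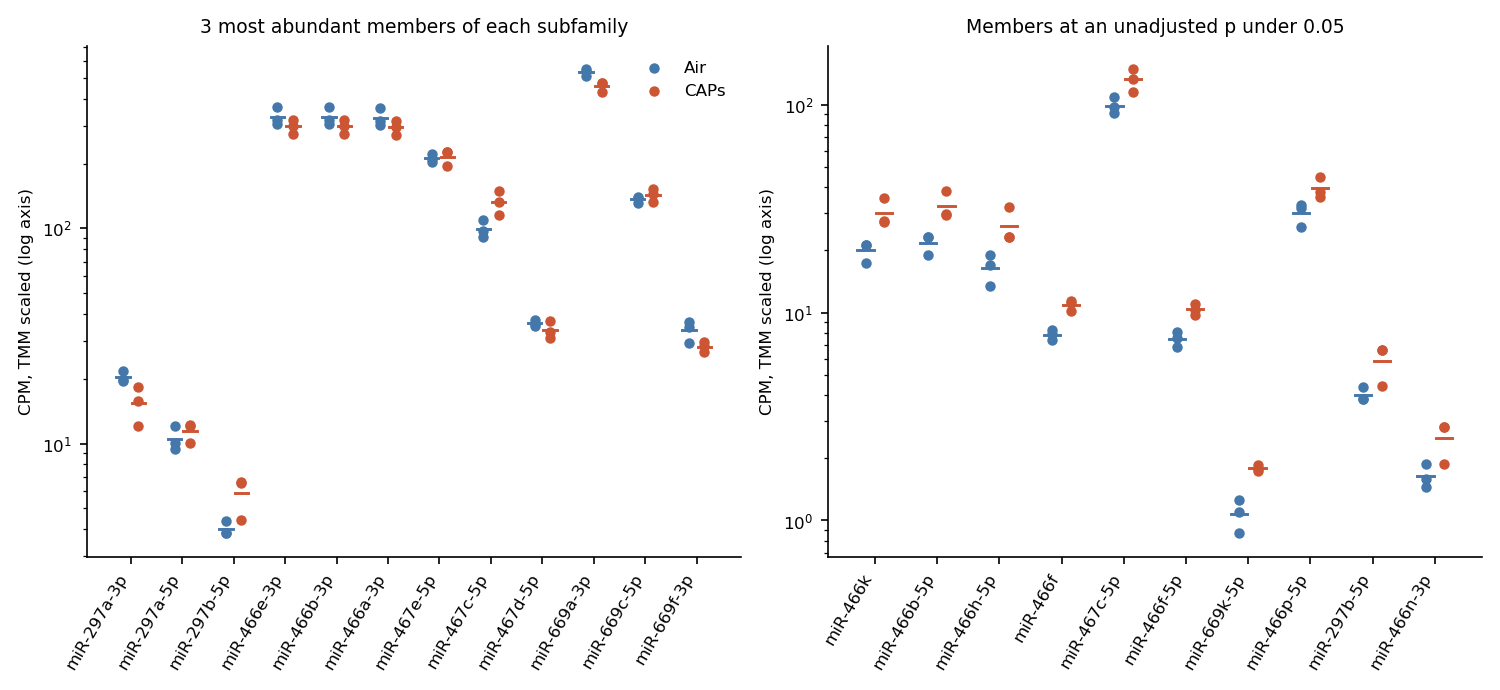
Levels of single members in the 3 Air (blue) and 3 CAPs (red) libraries, in CPM on a log axis, with a line at the group mean; left, the 3 most abundant members of each subfamily, right, the 10 members at an unadjusted p under 0.05 in edgeR. All 10 members on the right were higher in CAPs, whereas miR-669a-3p on the left lay between 430 and 476 CPM in CAPs and between 509 and 552 CPM in Air.

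To compare the groups member by member, all 668 miRNAs that passed the expression filter were tested with edgeR's quasi-likelihood test, 58 of the 71 members among them. Of these 58, 52 were over the filter level in all 6 libraries. miR-466e-5p was over it in every CAPs library but not in every Air library, and miR-669e-3p and miR-669l-3p the other way round. No member passed an adjusted p of 0.05, and neither did any other miRNA (0.0% of 668). At an unadjusted p under 0.05, 10 members were higher in CAPs and 0 were lower, that is 17.2% and 0.0% of the members tested, against 11.4% of all tested miRNAs higher and 9.43% lower. With DESeq2 size factors in place of TMM the split was 10 higher and 3 lower (miR-297a-3p, miR-466d-3p and miR-669a-3p). It was 11 higher and 4 lower when all rows of a name were summed. The split also rested on single libraries. It was 5 higher and 0 lower without Air replicate 1, 6 higher and 5 lower without Air replicate 2, 5 higher and 4 lower without Air replicate 3, 10 higher and 1 lower without CAPs replicate 1, 6 higher and 5 lower without CAPs replicate 2, and 7 higher and 0 lower without CAPs replicate 3.

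Counted by levels that did not overlap between the groups, 11 tested members were higher in CAPs and 7 lower, against 14.7% and 13.9% of all tested miRNAs. The members' median log2 fold change was 0.04, with 31 members above 0 and 27 below, beside a median of 0.01 over all tested miRNAs. Members ranged from -0.85 (miR-669c-3p) to 0.83 (miR-466e-5p), both with few counts.

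The 3 members with the smallest unadjusted p were all miR-466 names and had similar profiles over the libraries. miR-466k was at 21.1, 21.2 and 17.4 CPM in Air and 27.6, 35.5 and 27.2 CPM in CAPs. miR-466b-5p (identical to miR-466o-5p) was at 23.1, 23.0 and 18.9 CPM in Air and 29.8, 38.4 and 29.5 CPM in CAPs. miR-466h-5p was at 19.0, 16.9 and 13.4 CPM in Air and 23.0, 32.1 and 23.2 CPM in CAPs. For each of them every CAPs library was above every Air library, and CAPs replicate 2 was the highest of all.

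The log2 fold changes were 0.60 ± 0.16 for miR-466k, 0.59 ± 0.16 for miR-466b-5p and 0.67 ± 0.20 for miR-466h-5p (SE), with edgeR adjusted p = 0.152, 0.152 and 0.162. Unadjusted p stayed under 0.05 for all of these when any 1 library was left out. In DESeq2, the tool the study used, run here on filtered and merged rows, they were the only members past the threshold (DESeq2 adjusted p = 0.0481, 0.0481 and 0.0493). In that run 2.51% of 558 miRNAs were called higher and 2.87% lower. The study itself listed miR-466k and miR-466h-5p as upregulated, with smaller adjusted p from its own DESeq2 fit. DESeq2 called 0 members when any 1 of the Air libraries or CAPs replicate 2 was left out, and 4 without CAPs replicate 1 or without CAPs replicate 3.

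The 3 names could not be taken as independent measurements. In each library miR-466k had 91.2 to 92.7% of the count of miR-466b-5p, although their precursors lie on chromosomes 3 and 2. The counts alone thus could not separate the locus on chromosome 3 from those in Sfmbt2. miR-466h-5p varied more, at 70.6 to 83.5% of the count of miR-466b-5p. Whether these names shared reads was not tested.

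Other members at an unadjusted p under 0.05 were also higher in CAPs. The most abundant was miR-467c-5p, at 109, 97.0 and 91.4 CPM in Air and 115, 149 and 133 CPM in CAPs, a log2 fold change of 0.42 ± 0.13 (edgeR adjusted p = 0.162). Its groups did not overlap, though the lowest CAPs library was close to the highest Air library. miR-466p-5p was at 31.9, 33.0 and 25.7 CPM in Air and 38.1, 45.0 and 36.1 CPM in CAPs (0.40 ± 0.15, adjusted p = 0.191).

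miR-466f was at 7.87, 8.22 and 7.41 CPM in Air and 11.4, 11.1 and 10.2 CPM in CAPs (0.48 ± 0.14, adjusted p = 0.162). miR-466f-5p gave nearly the same reading, 0.46 ± 0.15 with adjusted p = 0.162, and the count of miR-466f was 102 to 109% of it. miR-297b-5p was at 3.82, 3.83 and 4.37 CPM in Air and 4.42, 6.60 and 6.59 CPM in CAPs (0.55 ± 0.22, adjusted p = 0.204). In CAPs replicate 1 it barely exceeded the highest Air library.

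The remaining 2 were scarce. miR-669k-5p was at 1.10, 0.866 and 1.26 CPM in Air and 1.73, 1.77 and 1.85 CPM in CAPs (0.73 ± 0.25, adjusted p = 0.169). miR-466n-3p, the only 3p name among the 10, was at 1.45, 1.86 and 1.59 CPM in Air and 1.86, 2.83 and 2.81 CPM in CAPs (0.62 ± 0.26, adjusted p = 0.227). Each rested on 14 to 51 counts per library and kept an unadjusted p under 0.05 with only 1 of the 6 libraries left out, as did miR-297b-5p.

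The 4 subfamilies were then compared. In miR-466, 7 of 25 tested members (28.0%) were higher at an unadjusted p under 0.05, against 11.4% of all tested miRNAs. In miR-297 it was 1 of 4, in miR-467 1 of 9 (11.1%) and in miR-669 1 of 20 (5.0%). The 7 miR-466 names could not be taken as independent, since miR-466k followed miR-466b-5p and miR-466f followed miR-466f-5p. Median log2 fold changes were 0.11 for miR-297, 0.08 for miR-466, -0.23 for miR-467 and -0.02 for miR-669. The median of miR-297 was -0.15 when names with identical counts were kept apart, because its 3 identical 3p names then counted separately. That of miR-466 was 0.38 when near-identical members were merged.

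Summed over a subfamily, levels overlapped between the groups for miR-297, miR-466 and miR-467. miR-297 summed to 40.2, 35.3 and 35.8 CPM in Air and 37.9, 37.1 and 30.3 CPM in CAPs. miR-466 summed to 1415.7, 1240.3 and 1196.3 CPM in Air and 1210.7, 1324.5 and 1123.3 CPM in CAPs. That sum holds miR-466a-3p, miR-466b-3p and miR-466e-3p separately, at means of 326, 330 and 330 CPM in Air, although their counts were near-identical. The order of the subfamilies by size therefore cannot be read from these sums. miR-467 summed to 455.2, 423.3 and 406.5 CPM in Air and 410.6, 482.6 and 456.8 CPM in CAPs. In miR-669 all CAPs libraries, at 761.2, 783.9 and 718.8 CPM, were below the Air libraries, at 852.6, 827.0 and 789.8 CPM, a ratio of 0.917 between the means.

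**Figure D2:**
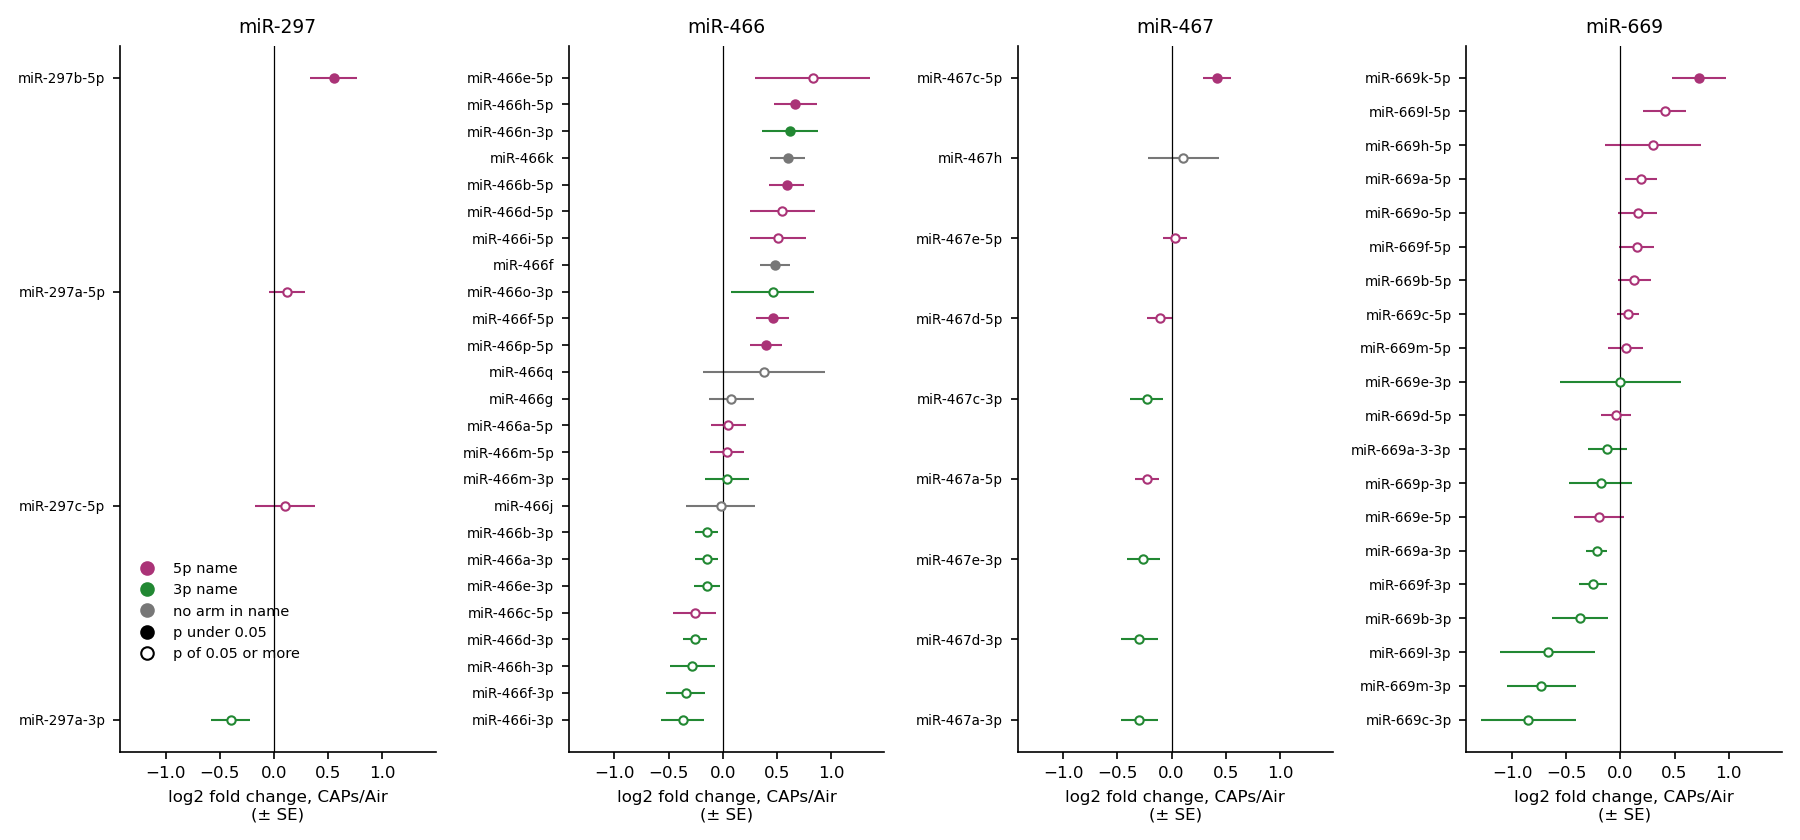
Log2 fold changes of CAPs against Air for the 58 tested members, by subfamily, with the SE from edgeR; the colour gives the arm in the name and filled symbols an unadjusted p under 0.05. Over the family 5p names (purple) tend to lie to the right and 3p names (green) to the left, with medians of 0.16 and -0.25. In miR-467, 2 of the 5p names lay above 0 and 2 below, and miR-297 had only 1 tested 3p name.

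Within the subfamilies the members differed by arm. Of 28 tested 5p names, 23 were above 0 and 5 below, with a median log2 fold change of 0.16 and 7 (25.0%) at an unadjusted p under 0.05, all higher. Of 24 tested 3p names, 3 were above 0 and 21 below, with a median of -0.25 and 1 (4.2%) at an unadjusted p under 0.05 (miR-466n-3p, higher). In the rest of the table the medians were -0.03 over 263 5p names, of which 11.8% were higher and 11.0% lower at that threshold, and -0.01 over 275 3p names, with 9.5% higher and 10.2% lower. In the family the 5p median ranged from 0.07 without CAPs replicate 2 to 0.23 without CAPs replicate 3, and the 3p median from -0.33 to -0.21.

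The arms divided in each subfamily, though least in the 5p names of miR-467. Medians for 5p and 3p names were 0.12 (3 names) and -0.40 (1 name) in miR-297, 0.49 (10 names) and -0.15 (10 names) in miR-466, -0.04 (4 names) and -0.28 (4 names) in miR-467, and 0.15 (11 names) and -0.25 (9 names) in miR-669. In miR-467, miR-467a-5p, which is identical to miR-467b-5p, was an exception among 5p names, at 29.5, 27.9 and 27.1 CPM in Air and a lower 24.7, 24.1 and 23.5 CPM in CAPs (-0.23 ± 0.11, edgeR adjusted p = 0.307). miR-467d-5p was at 37.5, 35.1 and 35.9 CPM in Air and 30.8, 37.0 and 32.9 CPM in CAPs, with overlap.

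The share of 5p counts among 5p and 3p counts does not depend on how libraries are scaled to each other. Over the family it was 28.4, 29.5 and 29.8% in Air and 32.6, 34.9 and 35.8% in CAPs, or 29.2 ± 0.74% against 34.4 ± 1.7% (SD, n = 3). All CAPs libraries were above all Air libraries. The same held after near-identical members were merged, with 39.7 ± 0.51% in Air and 45.9 ± 1.9% in CAPs, and for names found only in Sfmbt2, with 32.5 ± 0.57% and 38.0 ± 1.9%. For all other names of the table the share was 63.9 ± 0.21% in Air and 65.6 ± 0.21% in CAPs, also without overlap.

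The share was higher in CAPs in every subfamily, from very different starting points. In miR-297 it was 46.0, 44.8 and 44.7% in Air and 51.5, 57.7 and 60.2% in CAPs. In miR-466, where 3p names dominated, it was 8.8, 10.1 and 9.3% in Air and 12.5, 14.3 and 13.1% in CAPs. With near-identical members of miR-466 merged it was 18.8, 21.7 and 19.7% in Air and 25.9, 29.0 and 26.9% in CAPs. None of these ranges overlapped. In miR-467, where 5p names dominated, it was 87.5, 87.5 and 88.5% in Air and 89.4, 90.7 and 91.2% in CAPs. In miR-669 it was 27.8, 27.2 and 29.0% in Air and 31.6, 32.7 and 33.6% in CAPs, again with every CAPs library on the higher side. In the family as a whole and in each subfamily the lowest CAPs value was that of replicate 1, the library with the high miR-122-5p.

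**Figure D3:**
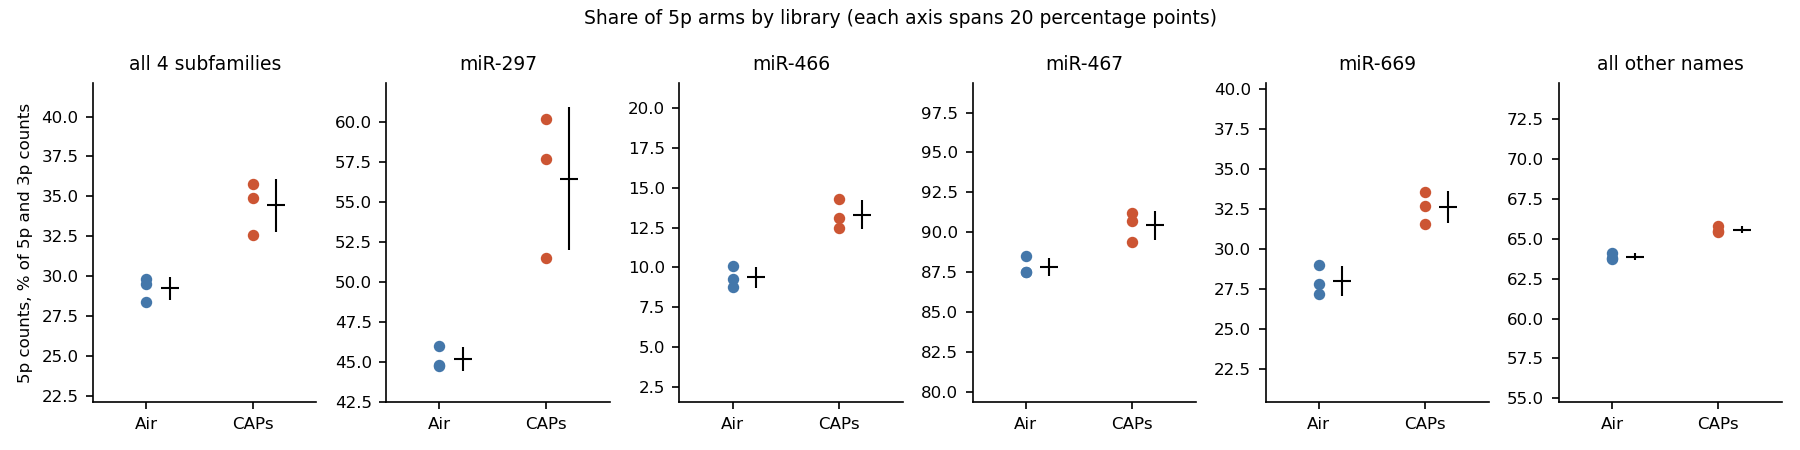
Counts of 5p names as a percentage of 5p and 3p counts in each library, for the family, each subfamily and all other names of the table, with the mean and SD (n = 3) beside the points; each vertical axis spans 20 percentage points and does not start at 0. The CAPs libraries (red) lay above the Air libraries (blue) in every panel, from 29.2% to 34.4% on average in the family and from 63.9% to 65.6% in all other names.

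Arms of the same name were next set against each other. Both arms were tested for 28 names, and the log2 ratio of 5p to 3p counts (0.5 added to each) was higher in CAPs for 26 of them and lower for 2, miR-466c and miR-466n. The median difference was 0.49, against 0.00 over the 168 other pairs of the table, of which 82 were higher and 86 lower. The ratios of CAPs and Air did not overlap for 16 of the 28 names, all higher in CAPs. Over all 196 pairs 24.5% were higher and 13.8% lower without overlap, and of the 168 other pairs 32 were higher and 27 lower. By subfamily the 16 were 3 of 3 names in miR-297, 5 of 12 in miR-466, 2 of 4 in miR-467 and 6 of 9 in miR-669. The 28 ratios rested on 25 distinct 5p and 23 distinct 3p arms, since names with identical counts share an arm. Near-identical counts (within 5%) were not merged here, so the ratios were less independent than those numbers. miR-466a-3p, miR-466b-3p and miR-466e-3p counted as separate arms, as did miR-467a-3p and miR-467d-3p, and miR-466m-5p and miR-669m-5p. With each arm used once, names taken in alphabetical order, 20 ratios were left, all higher in CAPs. That order dropped the 2 lower ratios, miR-466c and miR-466n, because miR-466b and miR-466d had already used a shared arm. The 20 thus add nothing to the 26 of 28. For miR-466e, miR-669e and miR-669l, 1 arm had been over the filter level throughout only in the group where it was higher, which favours a higher ratio in CAPs. Without these names 23 of 25 ratios were higher in CAPs, with a median difference of 0.48 and 15 without overlap.

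All 196 pairs, the 28 included, were tested with limma, a test chosen after these data had been seen. At an unadjusted p under 0.05, 13 of the 28 were higher, against 37 of the 196 (18.9%), and 0 were lower, against 24 (12.2%). At an adjusted p of at most 0.05, 9 were higher, against 23 of the 196 (11.7%), and 0 were lower, against 10 (5.1%). These 9 were miR-297a, miR-297b, miR-466b, miR-466f, miR-466h, miR-466i, miR-466p, miR-467c and miR-669a, and they used 7 distinct 3p arms. In each of the 9 the fitted change was above 0 for the 5p arm and below 0 for the 3p arm, as it was in 21 of the 28. The number past the threshold was 0 without Air replicate 1, 4 without Air replicate 2, 2 without Air replicate 3 and 3 without CAPs replicate 3, but again 9 without CAPs replicate 1 or without CAPs replicate 2. The median difference then stayed between 0.44 and 0.53.

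The smallest adjusted p was that of miR-466b. Its log2 ratio was -3.99, -3.79 and -4.01 in Air and -3.33, -3.06 and -3.23 in CAPs, a difference of 0.73 ± 0.13 (SE, limma adjusted p = 0.0102). The 3p arm was thus the more abundant in every library, by less in CAPs. miR-466p, which shares that 3p arm, differed by 0.54 ± 0.12 (limma adjusted p = 0.0148).

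miR-466i, whose precursor lies on chromosome 13 and whose CA-rich 3p strand is printed above, went from an excess of 3p in Air to an excess of 5p in CAPs. Its log2 ratio was -1.09, -0.48 and -0.08 in Air and 0.04, 0.48 and 0.54 in CAPs, a difference of 0.90 ± 0.24 (limma adjusted p = 0.0255). The 3p strand was at 17.6, 11.9 and 15.0 CPM in Air and 12.3, 12.8 and 9.33 CPM in CAPs, and the 5p strand at 8.28, 8.53 and 14.2 CPM in Air and 12.6, 17.9 and 13.5 CPM in CAPs. Each arm alone overlapped between the groups, while their ratio did not.

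miR-466h had a 5p excess throughout, with log2 ratios of 0.82, 1.27 and 0.41 in Air and 1.48, 1.98 and 1.83 in CAPs (0.93 ± 0.23, limma adjusted p = 0.0224). miR-466f had a 3p excess, with -2.32, -1.66 and -2.33 in Air and -1.38, -1.35 and -1.21 in CAPs (0.79 ± 0.20, limma adjusted p = 0.0224). In both, the groups were separate.

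In miR-297, miR-297a was at -0.84, -0.95 and -1.06 in Air and -0.61, -0.36 and -0.26 in CAPs (0.54 ± 0.15, limma adjusted p = 0.0314). miR-297b, set against the same 3p arm, differed by 0.95 ± 0.28 (limma adjusted p = 0.0382). The ratio of miR-297a was the highest of its subfamily and that of miR-297c the lowest, at -3.18 on average in Air and -2.69 in CAPs.

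In miR-467 the called name was miR-467c, at 3.94, 3.79 and 3.58 in Air and 4.19, 4.59 and 4.46 in CAPs (0.65 ± 0.18, limma adjusted p = 0.0306). The highest ratio there was that of miR-467e, with means of 4.69 in Air and 4.97 in CAPs. The lowest was that of miR-467a, at 0.64 and 0.71, whose arms both had fitted fold changes below 0.

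In miR-669 the called name was miR-669a, the most abundant of the family. Its log2 ratio was -4.49, -4.56 and -4.70 in Air and -4.20, -4.06 and -4.26 in CAPs (0.41 ± 0.12, limma adjusted p = 0.0441). The extremes were miR-669c, with means of 7.07 in Air and 8.01 in CAPs, and miR-669o, with means of -6.88 and -6.51. The 3p counts of miR-669o were identical to those of miR-669a-3p, so its ratio cannot be assigned to miR-669o alone. miR-669c-3p had only 4 to 22 counts per library.

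In miR-466 the extremes were miR-466o and miR-466e. miR-466o, whose 5p counts were identical to those of miR-466b-5p, had means of 4.70 in Air and 4.88 in CAPs. miR-466e had means of -8.82 and -7.72. For miR-466e the 5p arm had 5 to 37 counts per library against 3730 to 6329 for the 3p arm, and the ratios overlapped.

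**Figure D4:**
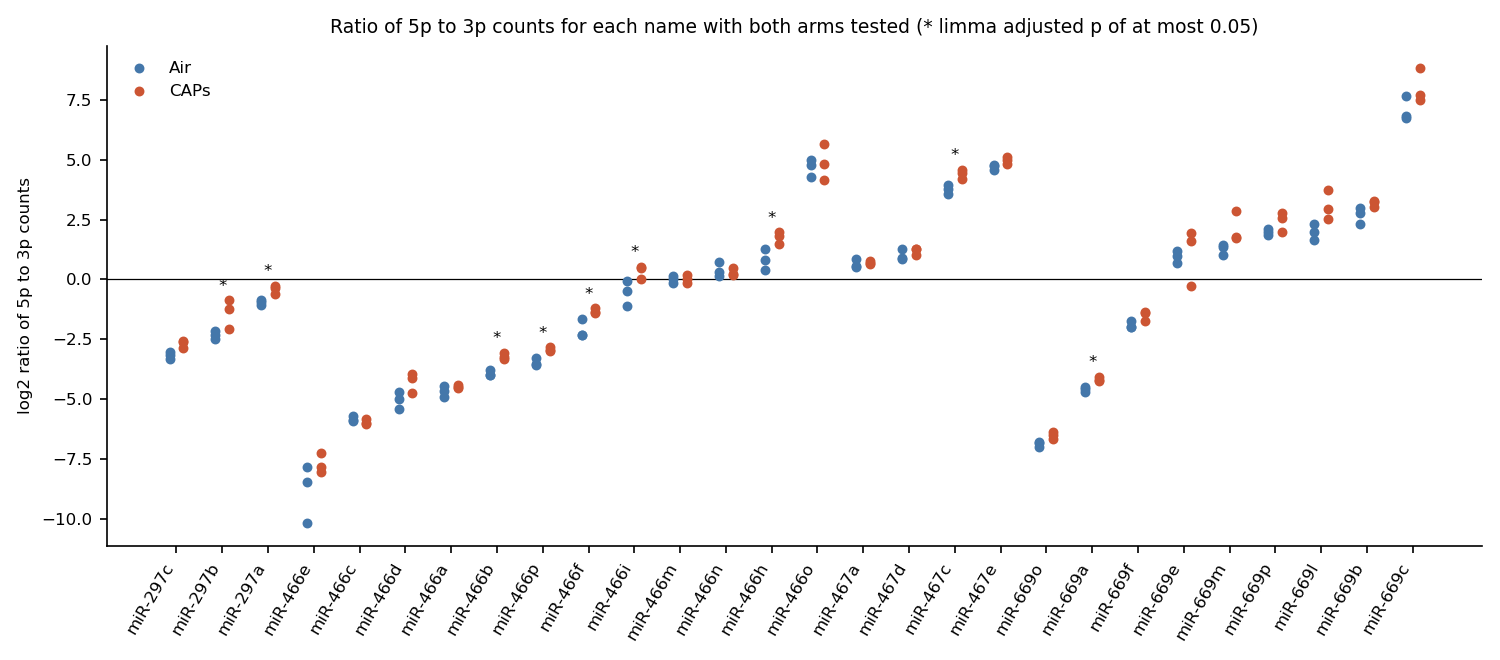
Log2 ratio of 5p to 3p counts (0.5 added to each) for the 28 names with both arms tested, ordered by mean ratio within each of the 4 subfamilies, with 1 point per library (Air blue, CAPs red) and an asterisk at a limma adjusted p of at most 0.05. Names ranged from a large 3p excess (miR-466e) to a large 5p excess (miR-669c), and the CAPs mean was above the Air mean in 26 of 28.

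By position, 47 members with precursors only in Sfmbt2 were tested, of which 7 (14.9%) were higher at an unadjusted p under 0.05 and 0 lower, close to the 11.4% of all tested miRNAs for the first and below their 9.43% for the second. Their median log2 fold change was 0.00. Within Sfmbt2 alone the arms split as in the family, with medians of 0.16 over 24 5p names and -0.25 over 22 3p names. Of 9 members elsewhere, 6 were tested, and only miR-466k was at an unadjusted p under 0.05. The UG-rich miR-466j was at 2.20, 1.05 and 2.12 CPM in Air and 1.99, 1.66 and 1.63 CPM in CAPs, with overlap (-0.02 ± 0.32). miR-467h was at 0.926, 1.05 and 0.794 CPM in Air and 0.897, 1.33 and 0.740 CPM in CAPs (0.11 ± 0.33). The CA-rich miR-466q, at 0.810, 0.557 and 0.132 CPM in Air and 0.705, 0.555 and 0.740 CPM in CAPs, also overlapped (0.38 ± 0.56).

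The 13 members that did not pass the filter had 0 to 19 counts in any library. They included miR-467f, miR-467g and miR-669n from outside Sfmbt2 and miR-669j, for which a count of 0 in a library allows up to 0.166 to 0.222 CPM, for counting error only. Among the 13, miR-467b-3p and miR-669d-2-3p were lower in CAPs without overlap. Their counts were 5, 4 and 6 in Air against 3, 3 and 2 in CAPs for miR-467b-3p, and 10, 8 and 6 against 2, 1 and 4 for miR-669d-2-3p.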

How the data were processed

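Small RNA of cultured EPCs was sequenced in 6 libraries. Per the study's methods, QIAseq miRNA libraries were trimmed, mapped to mm10 with mirDeep2 and bowtie and quantified against miRBase. bcl2fastq 20.0.422 and DESeq2 are named in the submitters' processing notes. The authors deposited raw counts per mature name and precursor. Reads that fit several precursors could be counted at each, and collapsing by molecular identifiers was not stated, so intervals and floors cover counting error only. The labels' culture time differs from that in the methods.

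Groups were taken from the sample titles. The family was set by name, and identical counts were merged in the whole table before fitting. The main test was the quasi-likelihood test of edgeR 4.0.16 under R 4.3.3 (default filterByExpr, which asks for about 10 counts in at least 3 libraries, TMM, Benjamini-Hochberg over 668 miRNAs). DESeq2 1.42.0 and limma 3.58.1 served as alternatives, and limma also for log2 ratios of arms over 196 pairs, a test chosen after seeing the data. An adjusted p given as NA by DESeq2 was left so. p-values measure the spread between these libraries. Scripts were tested on simulated data.

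Named were the 3 most abundant members of each subfamily, those at an unadjusted p under 0.05 or past an adjusted p of 0.05 in edgeR or DESeq2, miR-466k and miR-466h-5p, which the study listed, and names with the highest and lowest arm ratio of each subfamily. The called pairs, miR-466d-3p, members elsewhere and a few scarce members were named after their values were seen. Members and lists were chosen with earlier results of these data known.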

Additional observations from a re-analysis of the deposited data

How the results depend on the processing

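Members at an unadjusted p under 0.05 numbered 7 to 15 under the other scalings, filters, row choices and tools and 5 to 11 with 1 library left out. Past an adjusted p of 0.05, DESeq2 called 3 members, and 0 to 4 with 1 library left out (chosen after seeing the data), while edgeR and limma-voom called 0 under every alternative run. The replicate numbers did not pair the libraries (correlations of 0.02, -0.02 and 0.14 between same-numbered libraries). With the replicate block 10 members were at an unadjusted p under 0.05 (9 higher, 1 lower), 0 past the adjusted threshold, and 6 of the 28 ratios passed, against 9 without it.

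Upper-quartile scaling moved all tested miRNAs up by 0.14 and with them the medians of the family (0.18), miR-466 (0.22), miR-467 (-0.08), miR-669 (0.12), 5p (0.30) and 3p names (-0.11), the summed ratio (1.056) and miR-467d-5p (0.04, from -0.11). Relative to all tested miRNAs, the 5p median was 0.15 and the 3p median -0.26 under each of the 4 scalings. A change of scaling moves all miRNAs by about the same amount, so these differences could hardly vary and test nothing. Other medians moved for miR-297 with identical names apart (-0.15), for miR-466 with near-identical members merged (0.38) and for miR-669 without a filter (-0.12). With 1 library left out, medians lay between -0.08 and 0.10 (family), 0.00 and 0.24 (miR-297), -0.12 and 0.02 (miR-669) and 0.07 and 0.23 (5p). The called ratios numbered 0 to 9. miR-297c-5p (-0.08 to 0.29) and miR-467e-5p (-0.02 to 0.09) changed sign. The cause of these shifts was not tested beyond the scaling.

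The expression filter kept 13 scarce members out of the main test, and 70 members were tested without it, with 9 higher and 2 lower at an unadjusted p under 0.05. Ligation and amplification differ between miRNAs, so levels of different members carry that bias, and reads shared between near-identical names keep the members from being independent.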
